A study of Rattus norvegicus with 8 samples.

Results

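The lysosomal hydrolases, their inhibitors and activators, and the proteins of the lysosomal membrane were followed in the rat kidney as a list of 47 genes written by gene symbol. Of these, 46 were measured, by 61 probe sets that carry exactly 1 of the symbols, among 31042 probe sets tested and 14217 genes on the array. Npc1, which encodes the membrane partner of Npc2 in cholesterol export, was not measured. The 46 genes comprised 11 cathepsins, 22 other hydrolases, and 13 inhibitors, activators, membrane proteins and others. A gene with more than 1 probe set, as 13 of them had, was counted by its probe set of highest mean over all arrays.

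The arrays held kidney RNA of male Wistar rats aged 8 weeks, with 1 rat per array. For 24 days, 4 rats had been fed the control AIN-93G diet with 0.3% phosphorus and 4 rats an otherwise similar HP (high phosphorus) diet with 1.2%. The added phosphorus came as potassium phosphate in place of corn starch, so the HP diet also held more potassium. The authors had chosen the average rats of each group for the arrays, and the animals were thus not a random draw. Umod, Slc34a1, Lrp2, Slc12a1, Aqp2 and Slc12a3, which mark the tubules of the kidney, were read as a check of the tissue. They lay between the 93.6 and 99.9 percentiles of the mean values on the array. By their probe sets of highest mean, limma called none of the 7 kidney markers measured different between the diets. The other Slc34a1 probe set had all HP values under all control values. It was called lower by rank products (false discovery rate 0.017), the authors' test, but not by limma (adjusted p = 0.06). The paper lists Slc34a1 as downregulated on the HP diet.

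Lysosomes are acidic compartments in which hydrolases break down proteins, glycans, lipids and nucleic acids taken up by endocytosis or delivered by autophagy. In the kidney they are prominent in the proximal tubule, which degrades the proteins it takes up from the filtrate, and they are also abundant in macrophages. Cathepsins are the main lysosomal proteases, cystatins inhibit those of the cysteine type, the LAMP proteins line the membrane, and the transcription factor Tfeb drives many lysosomal genes.

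The values are logarithms, made by the authors with the distribution free weighted method (DFW), which pulls the arrays of a probe set close together. Differences between diets were therefore small in these units and are not fold changes. They are given in millionths of a deposited log unit, with the standard error (SE), and as the standardized difference, that is, HP minus control divided by the pooled SD within the diets. For the values of single arrays, each array is given in millionths above the lowest array of the same probe set. "Called" means an adjusted p under 0.05 by limma over all probe sets tested.

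Of the 61 lysosomal probe sets, 9 rose on the HP diet and 0 fell by limma. These were Ppt1, Ctsd, Npc2, Ctss, Ctsz, Ctse, Cst3, Ctsb and Arsb, with standardized differences between 3.26 and 7.33. Among all probe sets tested, 2.95% were called higher and 1.13% lower, against 14.8% of the lysosomal probe sets called higher. At an unadjusted p under 0.05, 19 lysosomal probe sets were higher and 3 lower, where 9.53% and 9.45% of all probe sets were. The lowest HP array exceeded the highest control array in 17 lysosomal probe sets (27.9%, against 7.09% of all), and the highest HP array was below the lowest control array in 2 (3.28%, against 5.81%), and the diets overlapped in the other 42. The median standardized difference was 0.75 over the lysosomal probe sets and -0.21 over all probe sets, and the difference was positive in 63.9% and 42.3% of them, respectively.

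**Figure D1:**
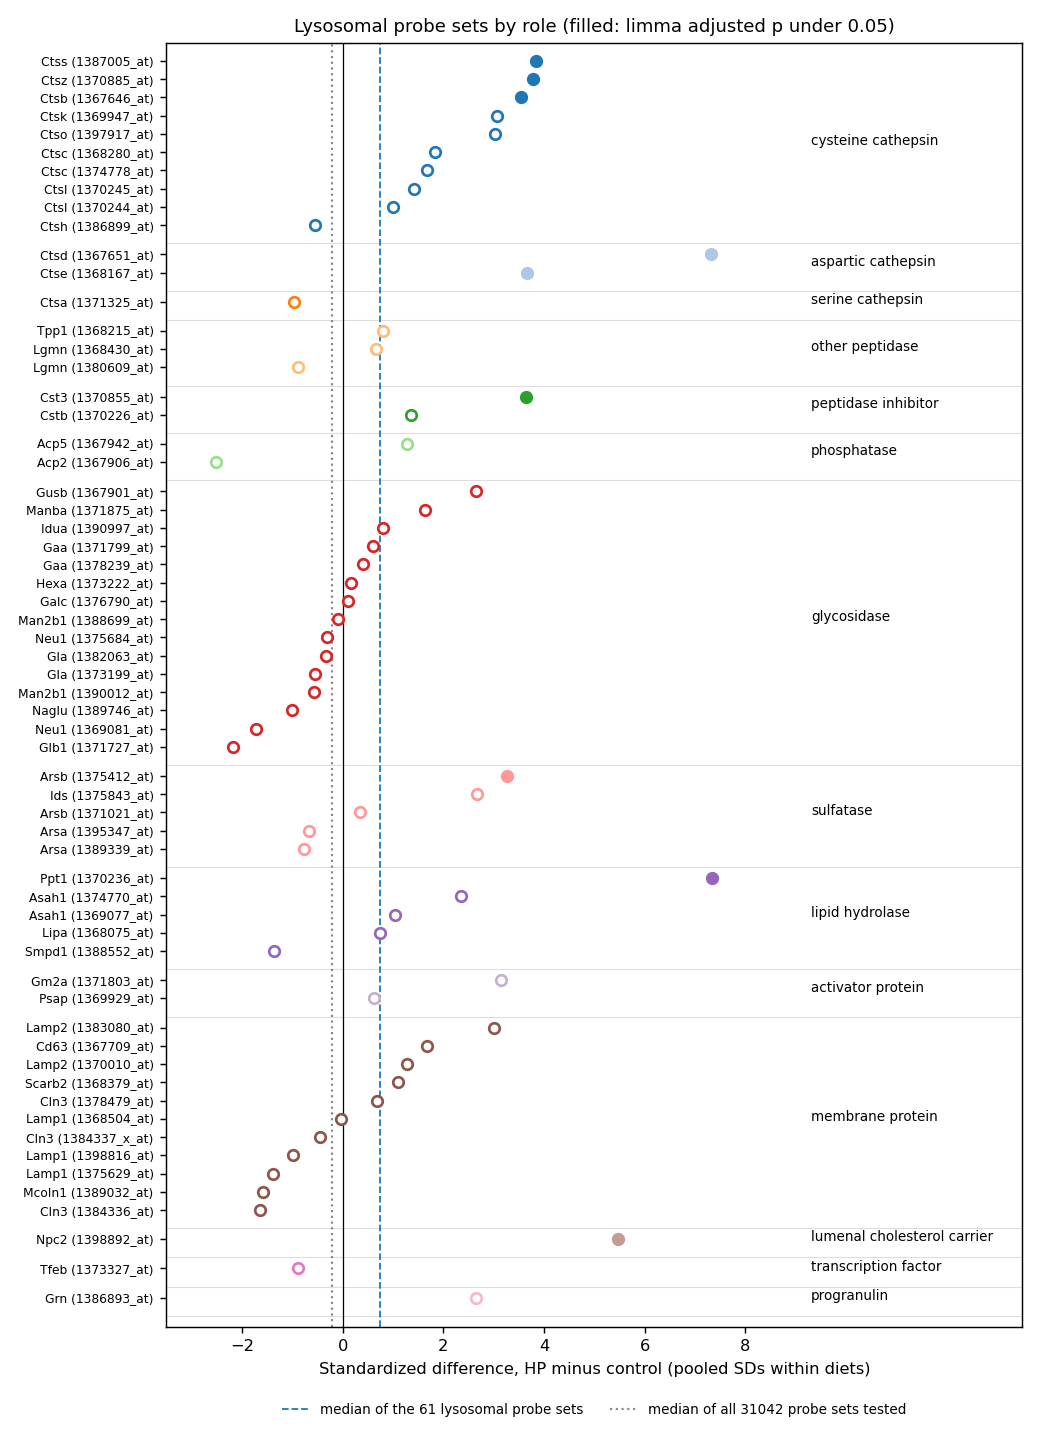
Standardized difference between the diets (HP minus control, in pooled SDs within diets) of each of the 61 lysosomal probe sets, ordered by role, with filled points for an adjusted p under 0.05 and vertical lines at 0, at the median of the lysosomal probe sets (0.75) and at that of all probe sets tested (-0.21). The 9 filled points lie between 3.26 and 7.33, and the lowest point is Acp2 at -2.52.

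These directions hold for the values as deposited, and many of them turned when the arrays were scaled again. Centring each array on its median turned the sign of 30 of the 61 lysosomal probe sets, leaving 9 positive against 39 as deposited. With the Affymetrix controls in that median, 27 turned and 12 were positive. The medians of the 8 arrays, with those controls included, spanned 65.1 millionths. Of the 61 lysosomal probe sets, 52 had a smaller difference between the diets than that. After each array was centred on its median without those controls, only Ctsz of the 9 stayed called. Ctsd had a standardized difference of 0.44, and Npc2, Ctsb and Arsb became negative. The median standardized difference was -0.92 over the lysosomal probe sets and -0.94 over all. Of all probe sets, 0.251% were called higher and 0.0612% lower, against 2.95% and 1.13% as deposited. With the Affymetrix controls in the median used for centring, 6 lysosomal probe sets were called higher and 0 lower, where 1.42% and 0.499% of all probe sets were. Ctsz, Ctss, Ctse and Cst3 of the 9 were among these 6, with adjusted p between 8.2e-06 and 0.0033, beside Ctsk and Gm2a. Npc2 had a standardized difference of 0.01 (adjusted p = 0.99). The adjusted p of the centred fits cannot be compared in size with those as deposited, because limma estimated the spread shared by the probe sets anew. Without those controls in the median, limma gave 2.1e-55 for Ctsk and 0.98 for Ctss, against 0.058 and 0.032 as deposited. After quantile normalization, 28 of the 61 lysosomal probe sets kept any spread within the diets, of which 4 were called higher and 8 lower, against 9 and 0 as deposited. Among the 15784 probe sets of the array with spread after quantile normalization, 339 were called higher and 5043 lower, whereas 915 and 350 of all 31042 were called as deposited.

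The cathepsins held 5 of the 9 called genes. By gene, 5 of 11 cathepsins rose (Ctsd, Ctss, Ctsz, Ctse and Ctsb; after median centring 2, Ctsz and Ctsk, and with the Affymetrix controls in the median these and Ctss and Ctse), 0 fell and 6 were not called, where limma called 4.58% of all genes higher and 1.23% lower. The median standardized difference of the cathepsins was 3.07, and that of all genes was -0.07. In 7 of the 11 the HP arrays were all above the controls, and in 0 were they all below, where 10.2% and 6.23% of all genes were. The median deviation of the 11 cathepsins from their control means was 2.40 to 3.10 pooled SDs in the 4 HP arrays and -0.30 to 0.40 in the 4 control arrays.

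Ctsd encodes cathepsin D, the principal aspartic protease of lysosomes. Its probe set (1367651_at) read 13.6, 0.00, 3.0 and 12.3 millionths in control replicates 1 to 4 and 95.7, 118, 82.0 and 87.8 in HP replicates 1 to 4, above a lowest value of 10.57. The diets did not overlap, the lowest HP array lay far above the highest control array, and HP replicate 2 was the highest. Ctsd rose by 88.7 millionths (SE 8.56), a standardized difference of 7.32 (adjusted p = 0.006). Its call held in all 8 fits that left out 1 array, where the adjusted p was at most 0.028 (HP replicate 1 left out).

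Ctse, the other aspartic cathepsin, is found in endosomes of immune and epithelial cells. It read 0.00, 25.1, 74.5 and 115 millionths in the control arrays and 283, 312, 339 and 523 in the HP arrays (1368167_at). The diets were separate, with HP replicate 4 the highest array, unlike in Ctsd. The rise was 310 millionths (SE 60, standardized difference 3.66, adjusted p = 0.036). It was lost in 7 of 8 fits without 1 array, reaching an adjusted p of 0.093 without control replicate 2 or 3, and was kept only without HP replicate 4 (0.023).

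Ctss encodes cathepsin S, the cysteine protease that processes the invariant chain in antigen-presenting cells. It read 209, 0.00, 43.4 and 454 millionths in the control arrays and 1327, 2052, 1477 and 1028 in the HP arrays (1387005_at). All HP arrays lay above all control arrays, with HP replicate 2 the highest and HP replicate 4 the lowest of the HP arrays. Ctss rose by 1295 millionths (SE 238, standardized difference 3.84, adjusted p = 0.032), a call that was kept only without HP replicate 2 (0.032) or HP replicate 4 (0.033) and was lost in the other 6 fits without 1 array, reaching an adjusted p of 0.092 with control replicate 3 left out.

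Ctsz, the carboxypeptidase cathepsin X, read 515, 431, 515 and 0.00 millionths in the control arrays and 3056, 4746, 2754 and 2381 in the HP arrays (1370885_at). Control replicate 4 lay apart below the other 3 control arrays, and the order of the HP arrays at the top and bottom was that of Ctss. The rise was 2869 millionths (SE 537, standardized difference 3.78, adjusted p = 0.033). It was kept without HP replicate 2 (0.0093) or HP replicate 4 (0.041) and lost in the other 6 fits without 1 array, reaching an adjusted p of 0.088 with control replicate 3 left out.

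Ctsb encodes cathepsin B, one of the most widely expressed cysteine cathepsins. It read 6.08, 0.07, 9.34 and 0.00 millionths in the control arrays and 19.3, 15.5, 17.4 and 24.9 in the HP arrays (1367646_at). The diets were separate, with control replicate 3 the highest control array and HP replicate 2 the lowest HP array. Ctsb rose by 15.4 millionths (SE 3.08, standardized difference 3.54, adjusted p = 0.039), and this call was lost without any 1 of the 8 arrays, with an adjusted p of 0.057 without control replicate 3 to 0.1 without HP replicate 1.

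Of the 6 cathepsins that limma did not call, Ctsk and Ctso were called by rank products, the test that the study's methods name (false discovery rate, FDR, under 0.05). Ctsk, the collagen-degrading protease of osteoclasts, had the largest difference of all lysosomal probe sets in deposited units. It read 0.00, 253, 787 and 2472 millionths in the control arrays and 8537, 16033, 10128 and 6285 in the HP arrays (1369947_at). All HP arrays lay above all control arrays, and the HP arrays spread more widely than the control arrays. The difference was 9368 millionths (SE 2160, standardized difference 3.07, adjusted p = 0.058), and limma called Ctsk without HP replicate 2 (0.034).

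Ctso, a less studied cysteine cathepsin, read 93.4, 43.0, 0.00 and 48.0 millionths in the control arrays and 339, 194, 246 and 156 in the HP arrays (1397917_at). Its diets did not overlap either, with HP replicate 1 the highest array. The standardized difference was 3.02 (adjusted p = 0.061 by limma, FDR = 0.0027 by rank products), and after quantile normalization it was -2.12 (adjusted p = 0.05 as rounded). The remaining 4 cathepsins overlapped between the diets. Ctsc, which activates serine proteases of leukocytes, had 1.67 (adjusted p = 0.24), and Ctsl, which is prominent in the proximal tubule, had 1.01 (0.49). The aminopeptidase Ctsh had -0.55 (0.86), and Ctsa, the serine carboxypeptidase that protects Glb1 and Neu1, had -0.96 (0.58).

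**Figure D2:**
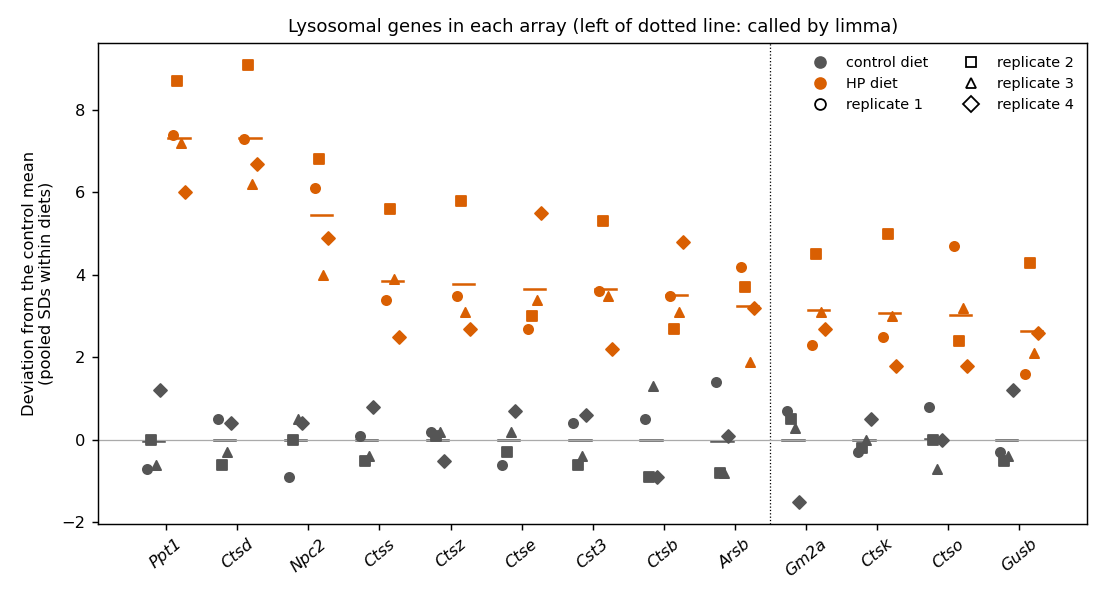
Deviation of each array from the control mean, in pooled SDs within diets, for the 9 lysosomal genes called by limma (left of the dotted line) and the 4 called by rank products alone, with grey symbols for control arrays, orange symbols for HP arrays and short lines at the means. No HP array overlaps a control array in any of the 13 genes, and HP replicate 2 is the highest array in 6 of the 9 genes on the left.

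Of the 22 other hydrolases, 2 rose (Ppt1 and Arsb), 0 fell and 20 were not called, beside the same 4.58% and 1.23% of all genes. Their median standardized difference was 0.64. In the single arrays, their median deviation from the control means was 0.80, 0.15, 0.10 and 1.5 pooled SDs in HP replicates 1 to 4 and -0.35 to 0.05 in the control arrays. At an unadjusted p under 0.05, 5 of the 22 were higher and 3 lower, beside 13.4% and 9.34% of all genes.

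Ppt1 encodes the thioesterase that removes fatty acyl groups from proteins, and in the deposited values it had the largest standardized difference of all the lysosomal genes. Its probe set (1370236_at) read 0.00, 11.7, 1.75 and 31.2 millionths in the control arrays and 134, 156, 130 and 111 in the HP arrays. The HP arrays lay together well above the control arrays. Ppt1 rose by 122 millionths (SE 11.7), a standardized difference of 7.33 (adjusted p = 0.006), and its call held without any 1 array, the adjusted p being at most 0.028 (HP replicate 1 left out). After median centring its standardized difference was 0.96 (adjusted p = 0.98), and with the Affymetrix controls in the median it was 2.58 (0.06).

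Arsb, the sulfatase that acts on dermatan sulfate, was called by 1 of its 2 probe sets. That of higher mean (1375412_at) read 14.4, 0.00, 0.19 and 5.91 millionths in the control arrays and 32.5, 29.6, 17.8 and 26.1 in the HP arrays. The lowest HP array, replicate 3, was just above the highest control array. The rise was 21.4 millionths (SE 4.64, standardized difference 3.26, adjusted p = 0.049), the call nearest to the threshold, and it was kept only without HP replicate 3 (0.043), and the highest adjusted p among the other fits was 0.12. The other Arsb probe set (1371021_at) overlapped between the diets, with a standardized difference of 0.35 (adjusted p = 0.85).

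The glycosidases, which cleave sugars from glycoproteins and glycolipids, had 0 of 11 genes called in either direction by limma, with a median of 0.11. At an unadjusted p under 0.05, 1 of them was higher and 2 were lower, and rank products called 1 higher and 0 lower, where they called 5.31% and 2.32% of all genes. The 1 called by rank products was Gusb, the beta-glucuronidase, which read 2.36, 0.00, 2.0 and 26.1 millionths in the control arrays and 32.6, 73.3, 39.4 and 47.3 in the HP arrays (1367901_at). The diets were just separate, since control replicate 4 lay far above the other controls and close to HP replicate 1. Gusb had a standardized difference of 2.64 (adjusted p = 0.088, FDR = 0.038 by rank products), and -0.35 after median centring. After quantile normalization limma called it higher (adjusted p = 0.03).

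At the other end, Glb1, the lysosomal beta-galactosidase, and Acp2, the lysosomal acid phosphatase, were the lysosomal probe sets with all HP values under all control values. Glb1 read 5.02, 4.38, 5.85 and 4.18 millionths in the control arrays and 1.89, 0.00, 2.41 and 3.99 in the HP arrays (standardized difference -2.18, adjusted p = 0.16). Acp2 read 5.04, 4.23, 4.70 and 2.97 in the control arrays and 2.58, 0.00, 1.99 and 2.02 in the HP arrays (-2.52, adjusted p = 0.12). Neither passed the test, and HP replicate 2 was the lowest array in both. Neu1, the sialidase that forms a complex with Glb1 and Ctsa, had -1.72 (adjusted p = 0.23) in overlapping diets.

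Among the remaining hydrolases, Ids, which removes sulfate from heparan and dermatan sulfate, had 2.67 (adjusted p = 0.092), and Asah1, the acid ceramidase, had 2.35 (0.13). Both genes had all HP values over all control values by these probe sets. The other Asah1 probe set overlapped between the diets (1.04, adjusted p = 0.52). Acp5, the tartrate-resistant acid phosphatase of osteoclasts and macrophages, had 1.27 (0.37), Lipa, the acid lipase, had 0.75 (0.62) and Smpd1, the acid sphingomyelinase, had -1.37 (0.39). The glycosidases Hexa, Gaa, Galc, Gla, Idua, Manba, Man2b1 and Naglu, the sulfatase Arsa, and the peptidases Lgmn and Tpp1 lay between -1.01 (Naglu) and 1.64 (Manba), all with overlapping diets.

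The 13 genes that are not hydrolases comprised 2 that rose (Cst3 and Npc2) and 11 that were not called, beside 4.58% of all genes called higher and 1.23% lower, with a median standardized difference of 1.28. Cst3 encodes cystatin C, the secreted inhibitor of cysteine cathepsins. It read 58.2, 0.00, 9.81 and 68.2 millionths in the control arrays and 244, 339, 238 and 158 in the HP arrays (1370855_at). The diets were separate, with HP replicate 2 the highest and HP replicate 4 the lowest HP array, as for Ctss and Ctsz. Cst3 rose by 211 millionths (SE 40.8, standardized difference 3.65, adjusted p = 0.036). The call was kept without HP replicate 2 (0.046) or HP replicate 4 (0.029) and lost in the other 6 fits without 1 array, reaching an adjusted p of 0.1 with control replicate 3 left out. Cstb, cystatin B of the cytosol, had 1.35 (adjusted p = 0.57).

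Npc2, the soluble carrier of cholesterol in the lysosomal lumen, read 0.00, 4.92, 7.58 and 6.8 millionths in the control arrays and 35.8, 39.8, 25.3 and 30.0 in the HP arrays (1398892_at). All HP arrays lay well above all control arrays. Npc2 rose by 27.9 millionths (SE 3.62, standardized difference 5.46, adjusted p = 0.012). Its call held in all 8 fits without 1 array, the adjusted p being at most 0.043 (control replicate 2 or HP replicate 1 left out), while median centring turned the standardized difference to -0.52.

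Of the activator proteins, which present lipids to hydrolases, Gm2a read 236, 218, 198 and 0.00 millionths in the control arrays and 412, 655, 501 and 450 in the HP arrays (1371803_at). Here too the diets were separate, and control replicate 4 lay far below the other controls. Gm2a was called by rank products (FDR = 0.00087) but not by limma (standardized difference 3.15, adjusted p = 0.054). Psap, the precursor of the saposins, had 0.63 (adjusted p = 0.69) with overlapping diets. Grn, the precursor of the granulins, had 2.64 (adjusted p = 0.089) and separate diets, the HP arrays being higher.

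By their probe sets of highest mean, the 6 membrane proteins measured included no called gene in either direction by limma, 0 at an unadjusted p under 0.05 and 0 by rank products, and their standardized differences ranged from -1.58 to 1.67. Lamp1, a major glycoprotein of the lysosomal membrane, read 1.44, 1.24, 2.18 and 2.03 millionths in the control arrays and 2.34, 0.00, 1.51 and 2.92 in the HP arrays (1368504_at). The HP arrays lay on both sides of the control arrays. The difference was -0.03 millionths (SE 0.67, adjusted p = 0.99), and its sign turned in 4 of 8 fits without 1 array. The other Lamp1 probe sets had standardized differences of -1.39 (adjusted p = 0.32) and -0.98 (0.5), and quantile normalization made the former a lower call (-2.29, adjusted p = 0.043).

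Lamp2, the receptor of chaperone-mediated autophagy, read 1.79, 0.00, 0.96 and 0.91 millionths in the control arrays and 1.82, 0.78, 2.70 and 2.44 in the HP arrays by its probe set of higher mean (1370010_at), with overlapping diets and a standardized difference of 1.28 (adjusted p = 0.43). Its other probe set (1383080_at) read 1.45, 0.00, 1.03 and 0.87 in the control arrays and 6.97, 4.14, 4.40 and 9.37 in the HP arrays. In that probe set the diets were separate, with a standardized difference of 3.01 (adjusted p = 0.066). Both Lamp2 values became negative after median centring (-0.92 and -0.84). Cd63, a tetraspanin of late endosomes, had 1.67 (adjusted p = 0.88), Scarb2, the receptor that carries beta-glucocerebrosidase to lysosomes, had 1.09 (0.48), Cln3 had -0.45 (0.79) and the calcium channel Mcoln1 had -1.58 (0.29).

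Tfeb itself read 0.22, 0.58, 0.54 and 0.14 millionths in the control arrays and 0.42, 0.14, 0.00 and 0.22 in the HP arrays (1373327_at). The diets overlapped in most of their range. The difference was -0.18 millionths (SE 0.14, standardized difference -0.88, adjusted p = 0.82), and it was not called in any of the 8 fits without 1 array.

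Rank products called 10 lysosomal probe sets higher (16.4%, against 3.4% of all probe sets on the array) and 0 lower (against 2.31% of all). Both tests called Ctsd, Ctse, Ppt1, Cst3, Ctsz and Ctss, limma alone called Ctsb, Arsb and Npc2, and rank products alone called Ctsk, Ctso, Gusb and Gm2a. The 3 called by limma alone had differences of 15.4 to 27.9 millionths, and the 4 called by rank products alone had differences of 40.5 to 9368 millionths. Rank products combine the ranks of the probe sets over pairs of arrays, while limma sets the difference against the spread within the diets.

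**Figure D3:**
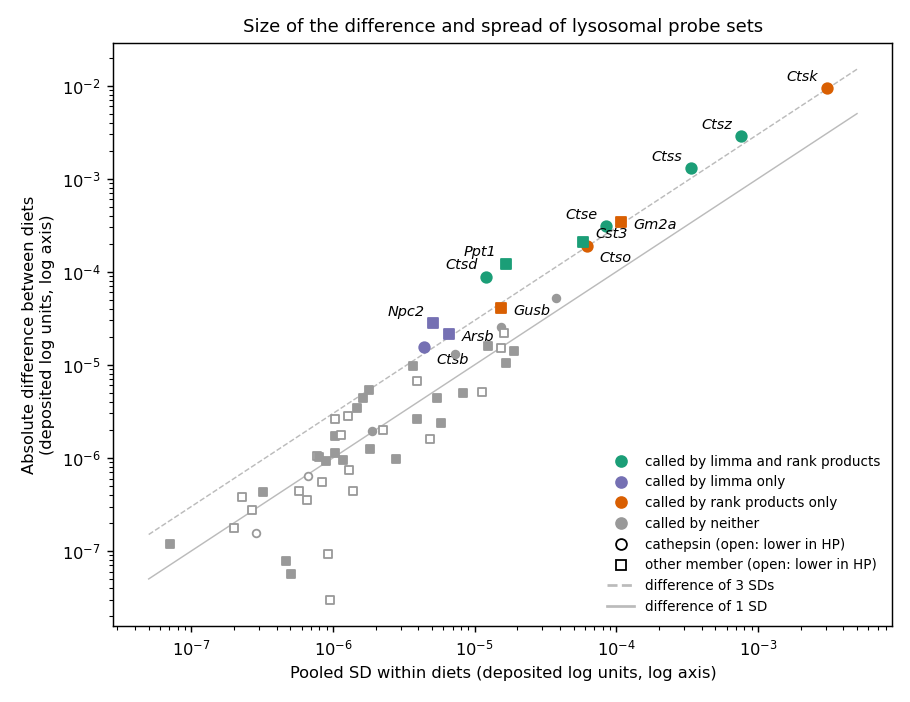
Absolute difference between the diets against the pooled SD within diets of each lysosomal probe set, both in deposited log units on log axes, with colours for the test that called it, circles for cathepsins, squares for other members, open symbols for a lower value on the HP diet, and lines at differences of 1 and 3 SDs. The genes called by rank products alone sit further to the right than those called by limma alone, and Ctsk has the largest difference.

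**Figure D4:**
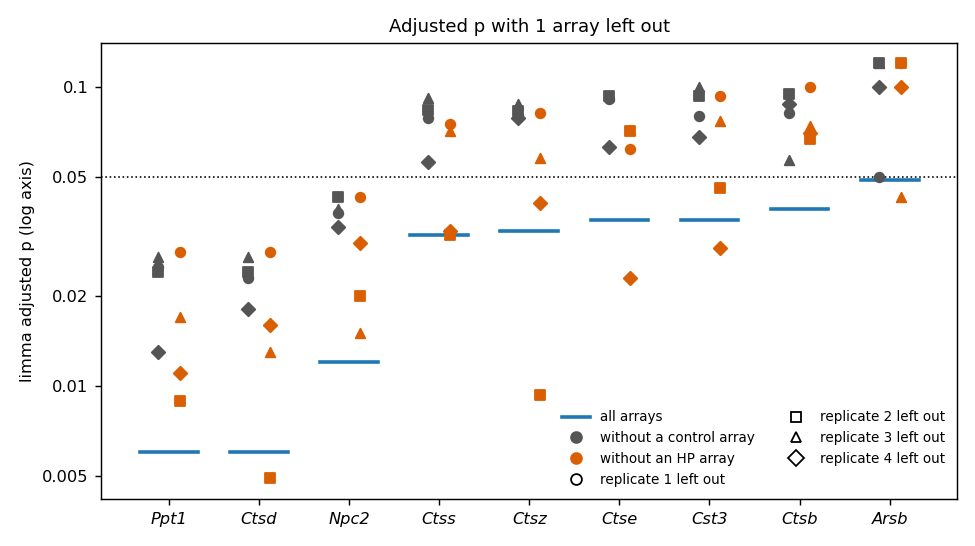
Adjusted p by limma (log axis) of the 9 called lysosomal genes with all arrays (blue lines) and with 1 array left out (grey for a control array, orange for an HP array, symbol shape for the replicate), with a dotted line at 0.05. Ppt1, Ctsd and Npc2 stay below the line in all 8 cases, with a highest value of 0.043, and the other 6 genes cross it.

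Of the 13 genes with several probe sets, 11 had the same sign in all of them and 2, Cln3 and Lgmn, had opposite signs. Arsb was the 1 gene of these with a called probe set. Without 1 array, limma called between 3 lysosomal probe sets (without control replicate 1, 2 or 3 or HP replicate 1) and 7 (without HP replicate 2 or 4). Without control replicate 4 or HP replicate 3 it called 4. Of all probe sets, 1.09% to 2.16% were called higher in the fits without 1 array, against 2.95% with all arrays.

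The HP arrays did not rank alike in all lysosomal genes. Of the 9 called probe sets, HP replicate 2 was the highest HP array in 6 and HP replicate 4 the lowest in 4. Of the 52 that were not called, HP replicate 4 was the highest in 22 (42.3%), where it was the highest in 23.3% of all probe sets. Of all 915 probe sets called higher on the array, HP replicate 2 was the highest in 61.3% and HP replicate 4 the lowest in 41.3%. The order in the called lysosomal probe sets was thus near that of all called probe sets.

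Lysosomal genes are expressed both by tubule cells and by macrophages, and in RNA of a whole kidney more cells of a type and more RNA per cell cannot be told apart. Of 19 macrophage markers measured, 14 rose and 0 fell, with a median standardized difference of 3.77. For these and the marker lists that follow, the shares of all genes were 4.58% called higher and 1.23% called lower. Their summed deposited values were 152.6117 to 152.61803 in the control arrays and 152.63865 to 152.6616 in the HP arrays. HP replicate 2 was the highest HP array in 13 of the 14 called markers and HP replicate 4 the lowest in 12. Among all probe sets called higher, these shares were 61.3% and 41.3%. Cd68, Aif1, Csf1r, Adgre1 and Ptprc, which define macrophages or leukocytes, were among those that rose, whereas Itgam (2.46, adjusted p = 0.11) and Cd163 (-0.26, 0.9) were not called. Of 16 proximal tubule markers, 0 rose and 1, Slc27a2, fell (-3.55, adjusted p = 0.039), with a median of -1.54 and sums of 199.98555 to 199.98561 in the control arrays and 199.98541 to 199.98553 in the HP arrays. Of 10 fibroblast markers, 7 rose and 0 fell, with a median of 5.39. The part of these cell types in the rises of the cathepsins, Ppt1, Cst3 and Npc2 was not tested.

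**Figure D5:**
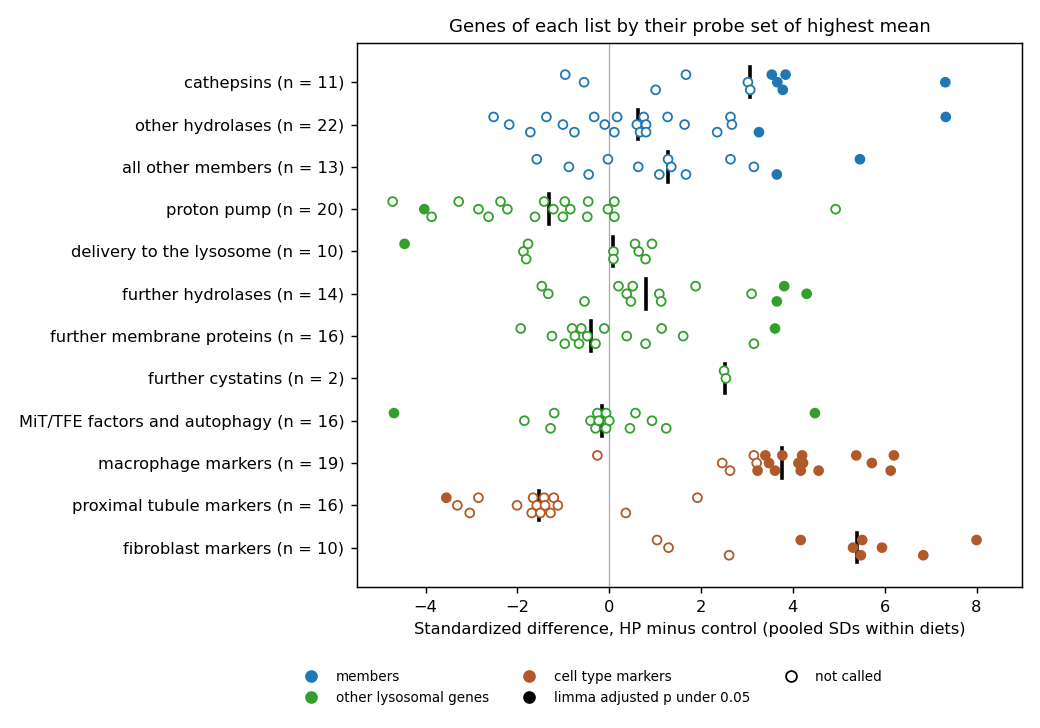
Standardized difference (HP minus control, in pooled SDs within diets) of each gene by its probe set of highest mean, for the lysosomal genes in 3 groups, further lysosomal genes, and markers of cell types, with filled points for an adjusted p under 0.05 and black bars at the medians. The median is 3.07 for the cathepsins, 0.64 for the other hydrolases, -1.32 for the proton pump and 3.77 for the macrophage markers.

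Of 93 further lysosomal and related genes, 78 were measured, of which 5 rose and 3 fell, with a median of -0.24. Of all genes, 4.58% rose and 1.23% fell. Further hydrolases had 3 of 14 higher and 0 lower, with a median of 0.80. They were Rnaset2, a ribonuclease (4.30, adjusted p = 0.024), Prcp, a carboxypeptidase (3.81, 0.033) and Naaa, which hydrolyses acylethanolamines (3.65, 0.036), while Dnase2, the acid deoxyribonuclease, was not called (3.10, 0.057). Further membrane proteins had 1 of 16 higher and 0 lower, with a median of -0.39. This was Cd68, the macrophage glycoprotein that is also in the macrophage list (3.61, adjusted p = 0.037). Laptm5, also in both lists, was called by its other probe set (5.81, adjusted p = 0.0099) and not by that of highest mean (3.15, 0.054). The cystatins Cst6 and Cst7 were not called by limma (2.54, adjusted p = 0.098, and 2.50, 0.1).

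The proton pump, which acidifies lysosomes and, in the kidney, also acidifies urine in the collecting duct, lay on the other side. Of 20 subunits and accessory proteins measured, 0 rose and 1 fell, 17 had a negative difference (52.4% of all genes had one), and the median was -1.32. In 7 of the 20 the HP arrays were all below the controls, as in 6.23% of all genes. In 1, the accessory protein Atp6ap1, they were all above (4.93, adjusted p = 0.18), as in 10.2% of all genes. Atp6v0a2 fell (-4.03, adjusted p = 0.033; 0.07 and 0.98 by its other probe set), whereas Atp6v1h (-4.72, 0.058), Atp6v1a (-3.28, 0.078) and Atp6v1c2 (-2.63, 0.089) did not pass. Rank products called Atp6v1c2 lower (FDR = 0.013), and also the probe sets of lower mean of Atp6v1a (0.0052) and Atp6v1g3 (0.016). After median centring, none of the 78 further genes was called lower. Only 1 was called higher, and it was none of the 5 that rose as deposited.

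Of 10 genes for the delivery of enzymes to lysosomes, 0 rose and 1 fell, Gga2, a sorting adaptor (-4.46, adjusted p = 0.041), whose other probe set had -0.04 (0.99). Igf2r, the receptor for mannose 6-phosphate tags, had -1.87 (adjusted p = 0.2) but was called lower by rank products with both of its probe sets (FDR = 0.029 and 0.0004). Sort1, another sorting receptor, had -1.81 (0.22). Of 16 genes of the Tfeb family and of autophagy, Tfe3, a relative of Tfeb, rose (4.48, adjusted p = 0.022) and Mtor, the kinase that holds these factors in the cytoplasm, fell (-4.69, 0.019). The other 2 Tfe3 probe sets had 0.13 (adjusted p = 0.95) and -0.05 (0.98).

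Promoters were read from RefSeq (build GRCr8), as 250 bases before to 50 bases after the start of 39 of the 46 measured genes and of Npc1. They were searched for CACGTG, the E-box that Tfeb and its relatives bind, and for TCACGTGA, which contains it and reads the same on both strands, as does the shorter motif. CACGTG was in 10 of these 40 promoters (25%) and in 6.65% of the 27457 promoters of all genes, and TCACGTGA was in 5 (12.5%) and in 0.867%. Of the 6 called genes with a promoter, 1 (Ctsd) held either motif, and of the 33 measured genes that were not called, 9 held CACGTG. Of the 10 cathepsins with a promoter, Ctsd was the 1 with a match. The 250 bases before the start are shown for Ctsd, which rose and has both motifs (chr1:206968822-206969071, minus strand), for Lamp1, which was not called and has the most matches, 5 (chr16:83075064-83075313, minus strand), and for Ctss, which rose and has none (chr2:185775146-185775395, plus strand). Capitals mark the matches, with all 8 letters where the longer motif matches.
Ctsd: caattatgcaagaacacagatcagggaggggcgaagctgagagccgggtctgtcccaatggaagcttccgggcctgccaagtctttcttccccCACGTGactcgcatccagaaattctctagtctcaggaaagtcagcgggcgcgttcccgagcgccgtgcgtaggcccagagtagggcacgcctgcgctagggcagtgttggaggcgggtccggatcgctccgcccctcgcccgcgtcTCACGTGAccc
Lamp1: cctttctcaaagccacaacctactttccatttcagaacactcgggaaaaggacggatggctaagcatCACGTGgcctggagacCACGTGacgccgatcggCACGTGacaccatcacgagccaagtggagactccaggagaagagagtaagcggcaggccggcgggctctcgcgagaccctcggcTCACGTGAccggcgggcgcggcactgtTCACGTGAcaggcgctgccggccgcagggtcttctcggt
Ctss: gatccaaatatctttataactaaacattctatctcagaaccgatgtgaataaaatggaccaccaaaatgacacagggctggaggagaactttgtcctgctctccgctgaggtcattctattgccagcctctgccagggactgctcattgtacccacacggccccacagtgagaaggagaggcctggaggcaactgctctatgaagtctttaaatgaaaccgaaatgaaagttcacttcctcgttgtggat
In Ctsd the matches begin 157 and 11 bases before the start, and in Lamp1 the nearest begins 39 bases before it. A match is a description of the letters and not a measured binding site, and the members with a match and those without one were not tested against each other.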

How the data were processed

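Kidney RNA of 8 rats was hybridized to Affymetrix Rat Genome 230 2.0 arrays, 1 rat per array. The authors condensed the probe intensities of all arrays with DFW in R and Bioconductor (versions not given in the sources used here), and the deposited values, 1 per probe set and array, are on a log scale taken as log2, although the base is not stated. Replicate numbers and diets are those of the labels, and nothing else in the files describes batches.

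Of 31099 probe sets, 57 Affymetrix controls were left out and 31042 entered the fit of HP against control by limma 3.58.1 (R 4.3.3; lmFit and eBayes, prior degrees of freedom 0.772) with the Benjamini-Hochberg adjustment over all of them. Each adjusted p is from limma unless rank products are named. Symbols are those of GEO's platform annotation, which gives 1 symbol to 20826 probe sets, several to 436 and none to 9780. Precision is set by the 4 arrays of each diet, and an exact permutation test of 1 probe set cannot go below p = 0.029, the value of every probe set whose diets did not overlap. The genes with array values are those called with separate diets, with Tfeb, Lamp1 and Lamp2. Ctsk, Ctso, Gusb, Gm2a, Glb1 and Acp2 were added after their values were seen. In each further list up to 4 genes with the smallest p are named. The list of lysosomal genes and all other lists were chosen with earlier results of these data known.

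The settings changed in turn were limma's moderation (none, or trend with robust), array weights, the replicate number as a block, quantile normalization, median centring (also with the Affymetrix controls in the median, added after seeing the data), a filter that dropped the dimmest 25% of probe sets by mean, rank products (16 pairs of arrays, 1000 permutations), removal of each array, any probe set of a gene, and older symbols, which matched no further probe set. Python 3.11.15 with numpy 2.4.6, pandas 2.3.3 and matplotlib 3.10.9 was used for the other steps. The scripts' tests were checked on simulated data. There limma recovered 0 of 200 probe sets shifted by 2 SDs, 28 of 200 shifted by 4 SDs and 192 of 200 shifted by 8 SDs. A gene that was not called is therefore not shown to be unchanged.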

Additional observations from a re-analysis of the deposited data

Results flagged for a closer look

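Each diet of each lysosomal probe set was searched for an array whose gap to its nearest neighbour takes more of the range of the 4 arrays than Dixon's 95% critical value of 0.829, and 7 of 122 groups passed, where chance flags about 1 in 20. Ctsz was lowest in control replicate 4, with a gap of 0.837 of the range, and Gm2a was lowest in the same array (0.836). Gusb was highest in control replicate 4 (0.91). The rise of Ctsz was also lost without control replicate 4 (adjusted p = 0.079), whereas Gm2a and Gusb stayed above the threshold without it (0.078 and 0.08). Hexa was lowest in HP replicate 3 (0.917), Asah1 in control replicate 2 by 1 of its probe sets (0.829), and Cln3 in control replicate 3 by 1 of its probe sets (0.958) and highest in HP replicate 4 by another (0.833). These 3 genes were not called.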

How the results depend on the processing

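Beside the 9 higher and 0 lower lysosomal probe sets as deposited, limma without moderation called 3 higher, the replicate block 1, quantile normalization 4 higher and 8 lower, and median centring 2 higher. Of these, 3, 1, 2 and 1 were among the 9. Median centring with the Affymetrix controls called 6 higher, 4 of them among the 9, and 4 cathepsins, beside 1.42% of all probe sets. For cathepsins (5 as deposited) the same settings called 1, 1, 3 (and 1 lower) and 2 higher, and for other hydrolases (2) they called 1, 0, 1 (and 2 lower) and 0. Trend and robust moderation and array weights called 1 other hydrolase each, and median centring with those controls 0. For the further lysosomal genes (5 higher, 3 lower), the counts higher were 3, 2, 2 and 1 under the same 4 settings. Of these, 2, 1, 1 and 0 were among the 5. The counts lower were 0 with the replicate block and with either median centring. Leaving out 1 array gave 3 to 7 higher lysosomal probe sets, 1 to 4 cathepsins, 1 to 2 other hydrolases, and 0 to 4 higher and 0 to 2 lower further genes. In those fits, 1.09% to 2.16% of all probe sets were called higher.

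Signs turned under median centring for Npc2 (-0.52), Ctsb (-0.70), Arsb (-0.59 and -0.92), Lamp2 (-0.92 and -0.84) and Gusb (-0.35), and with the Affymetrix controls in the median for Ctsb (-0.43), Arsb (-0.19 and -0.89) and Lamp2 (-0.90 and -0.74). They turned under quantile normalization for the Arsb probe set that was not called (-1.31), Lamp2 (-1.22) and Ctso (-2.12). The called Arsb probe set had no spread there. Signs also turned for Lamp1 with array weights (0.14), and without 1 array for the Arsb probe set that was not called (-0.00 to 1.34) and Lamp1 (-0.53 to 0.94). Among the 41 other lysosomal probe sets, 23 turned under median centring. The cause was not tested. Quantile normalization left 33 of the 61 without spread within the diets, so they have no value there.

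The labels do not say whether equal replicate numbers mark a shared batch. Deviations of same-numbered arrays from the group means correlated at 0.00148 to 0.121 over 4 pairs, all positive. Those of arrays with unlike numbers correlated at -0.165 to 0.0842. Whether the arrays are paired was not tested. With the replicate block, 1 of the 9 (Ctse, adjusted p = 0.05, just under the threshold) was called.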
